A study of Mus musculus with 2 samples.

Results

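Interferon and Cxcl9 responsive AMs were the cells of 2 lung alveolar macrophage (AM) libraries in which the unique molecular identifiers (UMIs) of 7 genes together came to at least 500 per 1000000 UMIs of the cell (500 CPM). The 7 genes were Isg15, Ifit1, Ifit2, Ifit3, Irf7, Rsad2 and Cxcl9, and their summed CPM in a cell is called the score here. The score chose 453 members among 13851 cells that had at least 500 detected genes and at most 10% mitochondrial UMIs. Because the members were selected on these 7 genes in the same cells, every level and ratio of members over other cells is given as a description and not as a test. The libraries held cells sorted from lungs of C57BL/6 mice in postnatal week 10. Control-AM came from mice given the vehicle into the lung, and Tumor-AM from mice whose left lung had received Lewis lung carcinoma (LLC) cells marked with tdTomato. The study's methods describe female mice, enzymatic digestion of the lung and cell sorting. The study defines AMs among CD45+ autofluorescent lung cells as positive for Siglec-F and F4/80, and describes Siglec-F- macrophages as a further part of those cells in tumor-bearing lungs. The exact gate behind these 2 libraries was not given in the sources used here. The number of mice behind each library was not given in the sources used here. With 1 library per condition, no difference between them was tested, and what belongs to the library and what to the tumor cannot be told apart. The libraries shared 25 barcodes, none of them a member in either.

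AMs are the resident phagocytes of the airspace, where they clear surfactant and inhaled particles. Type I interferons bind the receptor made of Ifnar1 and Ifnar2 and act through a transcription factor complex on interferon-stimulated response elements (ISRE), which switches on antiviral interferon-stimulated genes (ISGs) such as Isg15, the Ifit genes and Rsad2. Interferon gamma binds Ifngr1 and Ifngr2 and acts mainly on gamma-activated sites (GAS), which favours guanylate-binding proteins, MHC class II genes and the chemokine Cxcl9, a ligand of CXCR3 on activated T cells and NK cells. Both interferons induce many genes in common, such as Cxcl10 and the MHC class I machinery, so a gene list can lean to one interferon without being specific to it.

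Promoter windows of the genes on which the results turn are shown first, from 250 bases before to 50 bases after the annotated start, as RefSeq gives them on GRCm38.p6. Capitals mark matches on either strand to the ISRE-type motif, which reads GAAA, 2 bases of any kind (NN) and GAAA. Isg15, Rsad2 and Ifit1 stand for the ISGs of the score, Gbp2 for the guanylate-binding proteins and Cxcl9 for itself. Their windows lie at chr4:156200769-156201068 (minus strand), chr12:26456403-26456702 (minus), chr19:34640639-34640938 (plus), chr3:142620413-142620712 (plus) and chr5:92328030-92328329 (minus).
Isg15: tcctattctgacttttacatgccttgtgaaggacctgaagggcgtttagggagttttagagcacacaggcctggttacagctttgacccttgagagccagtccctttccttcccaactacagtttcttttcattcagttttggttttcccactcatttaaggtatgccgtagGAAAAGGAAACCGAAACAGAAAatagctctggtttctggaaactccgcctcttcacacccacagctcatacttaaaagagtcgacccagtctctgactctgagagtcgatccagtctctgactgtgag
Rsad2: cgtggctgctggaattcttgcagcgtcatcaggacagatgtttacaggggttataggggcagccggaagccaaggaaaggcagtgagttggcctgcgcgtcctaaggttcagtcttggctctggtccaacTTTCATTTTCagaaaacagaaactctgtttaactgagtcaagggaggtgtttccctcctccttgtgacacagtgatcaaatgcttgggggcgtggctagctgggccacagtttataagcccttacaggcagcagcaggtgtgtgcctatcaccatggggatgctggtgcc
Ifit1: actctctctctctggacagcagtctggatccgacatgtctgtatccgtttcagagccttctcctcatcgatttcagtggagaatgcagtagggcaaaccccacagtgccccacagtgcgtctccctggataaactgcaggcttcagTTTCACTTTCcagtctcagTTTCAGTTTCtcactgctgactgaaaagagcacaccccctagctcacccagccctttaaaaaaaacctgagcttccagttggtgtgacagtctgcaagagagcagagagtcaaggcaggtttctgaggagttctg
Gbp2: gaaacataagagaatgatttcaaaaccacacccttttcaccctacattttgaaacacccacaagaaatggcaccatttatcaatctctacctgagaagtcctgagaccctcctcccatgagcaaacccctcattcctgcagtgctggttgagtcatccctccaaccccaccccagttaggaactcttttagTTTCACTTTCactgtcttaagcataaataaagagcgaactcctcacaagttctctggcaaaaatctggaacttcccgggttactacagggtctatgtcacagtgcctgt
Cxcl9: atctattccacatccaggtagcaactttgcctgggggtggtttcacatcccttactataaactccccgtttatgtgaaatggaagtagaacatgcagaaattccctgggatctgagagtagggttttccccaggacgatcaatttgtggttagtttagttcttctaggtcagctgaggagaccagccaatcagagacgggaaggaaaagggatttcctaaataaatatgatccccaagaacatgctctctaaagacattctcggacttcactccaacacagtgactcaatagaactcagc
Isg15 held 3 overlapping ISRE-type matches, Ifit1 held 2, and Rsad2 and Gbp2 held 1 each. The Cxcl9 window held neither this motif nor the GAS-type motif, which reads TTC, 3 bases of any kind (NNN) and GAA. This says only that these letters are not in this window. Among all 32851 windows of the table, 3.44% held the ISRE-type motif and 8.30% the GAS-type motif, and counted by gene 3.99% and 9.55% of 27025 genes did. Among 7 score genes, 4 held the ISRE-type motif and 1, Ifit2, the GAS-type motif. Of the 33 genes of the type I list with a window, 16 (48.5%) held the ISRE-type motif and 6 (18.2%) the GAS-type motif. Of the 23 genes of the gamma list with a window, 11 (47.8%) held the ISRE-type motif and 12 (52.2%) the GAS-type motif. Of the 13 AM identity genes with a window, 0 held the ISRE-type motif.

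Members were rare in both libraries and made up a larger share of the Tumor-AM cells. In Control-AM, 33 of 6185 cells were members, a share of 0.534% with an exact binomial 95% interval of 0.368% to 0.748%. In Tumor-AM, 420 of 7666 cells were members, a share of 5.48% (4.98% to 6.01%). The shares differed by 4.95 percentage points (4.40 to 5.50), a ratio of 10.3, with intervals that cover counting error only and not the spread between mice. The filtered cells had a median of 10370 UMIs in Control-AM and 8264 in Tumor-AM, so the library with the larger share was the shallower one. Thinning each cell to 4000 UMIs gave 0.739% in Control-AM and 8.23% in Tumor-AM. Members were deeper than other cells of their library, with medians of 12556 against 10361 UMIs in Control-AM and 11825 against 8152.5 in Tumor-AM. The part of depth in membership was not tested.

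**Figure D1:**
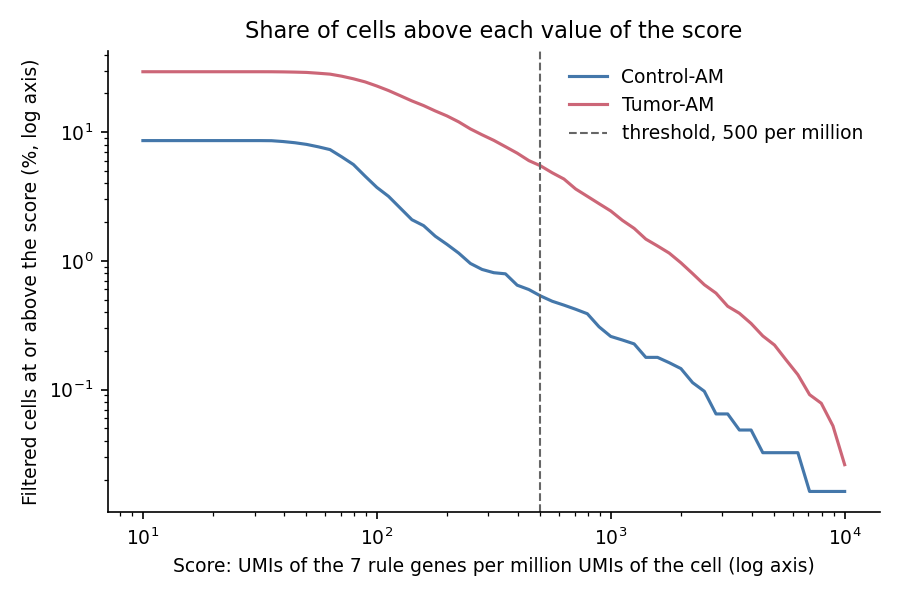
Share of filtered cells (%, log axis) whose score, the summed CPM of the 7 genes in the cell (log axis), is at or above each value, for Control-AM and Tumor-AM; the dashed line marks 500 CPM. The Tumor-AM curve lies above the Control-AM curve over the whole range, and neither has a step at the threshold, where the shares are 5.48% and 0.534%.

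The score showed no gap at the threshold. In Tumor-AM, 71 members lay less than 100 CPM above the threshold and 104 other cells less than 100 below it, with the lowest members at 500 and 503 and the highest other cells at 499.9 and 499.8. In Control-AM, 5 members lay just inside and 7 cells just outside, with the lowest members at 520 and 557 and the highest other cells at 499 and 496. The median score of the members was 939 CPM in Control-AM and 910 in Tumor-AM. Of the 420 Tumor-AM members, 232 had at least 10 UMIs of the 7 genes, 165 had 3 to 9, and 23 rested on 1 or 2 UMIs. The Tumor-AM members held 67.9% of all UMIs of the 7 genes in their library and 90.5% of the Cxcl9 UMIs, whereas 25.3% of the other Tumor-AM cells had at least 1 such UMI. In Control-AM, members held 52.8% of these UMIs, and 8.09% of the other cells had at least 1. The other cells thus differed between the libraries too, with a summed level of the 7 genes of 57.4 CPM in Tumor-AM against 9.39 in Control-AM.

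Among the score genes, Isg15, a ubiquitin-like modifier, and Irf7, the factor that amplifies type I interferon production, were found in most members. In Tumor-AM, 81.4% of members had an Isg15 UMI against 12.3% of the other cells, and 79.0% had an Irf7 UMI against 11.3%. In Control-AM the shares were 81.8% against 4.99% for Isg15 and 63.6% against 1.45% for Irf7. Rsad2, which encodes the antiviral enzyme viperin, was seen in 57.6% of Tumor-AM members and 42.4% of Control-AM members. Ifit1, Ifit2 and Ifit3 were seen in 48.6%, 49.0% and 48.1% of Tumor-AM members and in 48.5%, 42.4% and 45.5% of Control-AM members. Cxcl9 was seen least often of the 7 genes, with a UMI in 19.0% of Tumor-AM and 21.2% of Control-AM members. In the other cells its shares were 1.52% and 1.32%.

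Of the 7 score genes, Cxcl9 had the largest log2 ratio of Tumor-AM members over other cells, at 283.5 against 2.37 CPM, a value of 6.90. In Control-AM it stood at 417 against 1.60 CPM, but 49.1% of its member UMIs lay in 1 of 7 cells, and without the highest cell the level was 219 CPM there and 259.9 CPM in Tumor-AM. Isg15 was at 396 CPM in Tumor-AM members against 19.3 CPM in the other cells, and at 556 against 5.45 CPM in Control-AM. Control-AM members thus lay above Tumor-AM members for Isg15, while among the other cells the order was the opposite. Rsad2 was at 240 against 7.0 CPM in Tumor-AM, Ifit1, which binds foreign RNA ends, at 145 against 4.16 CPM, and Ifit3 at 116 against 2.23 CPM. Irf7 showed the smallest log2 ratio of the 7 genes in Tumor-AM, 3.56, with 235 against 19.9 CPM. Outside the score, the long transcript AW112010 was at 696 against 159 CPM in Tumor-AM and 993 against 125 CPM in Control-AM. H2-M2, a non-classical MHC class I gene, was at 28.9 against 2.57 CPM in Tumor-AM, with 20.4% of its member UMIs from 1 cell, and had only 1 UMI in Control-AM members.

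**Figure D2:**
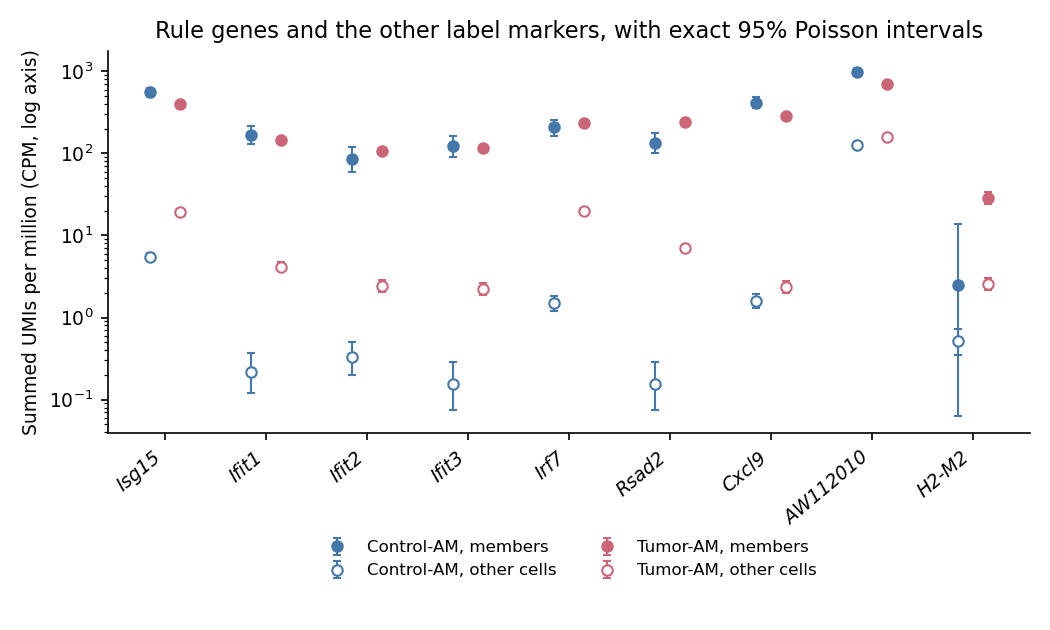
Summed level (CPM, log axis) of the 7 score genes, AW112010 and H2-M2 in members (filled) and other cells (open) of Control-AM and Tumor-AM, with exact 95% Poisson intervals. For Isg15 the members are at 556 (Control-AM) and 396 CPM (Tumor-AM), whereas the other cells of Tumor-AM lie above those of Control-AM for every score gene.

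The members carried alveolar macrophage genes. The summed level of 19 AM identity genes, such as Chil3, Siglecf and Pparg, was 22279 CPM in Tumor-AM members and 25193 CPM in the other Tumor-AM cells, and all 19 were detected in the members. It reached at least 1000 CPM in 417 of 420 Tumor-AM members and in all 33 Control-AM members, whose summed level was 25857 CPM. No AM identity gene was at least 2-fold higher in Tumor-AM members, and 2 were at least 2-fold lower, where 1.84% of the 9616 genes kept were lower. Marco, a scavenger receptor, was at 74.8 against 217 CPM, a log2 ratio of −1.54 (95% interval −1.69 to −1.39) that was −0.57, under 2-fold, with members chosen by Cxcl9 alone, and Cidec, a lipid droplet protein, at 59.4 against 158 CPM. In Control-AM, Marco was at 507 against 586 CPM.

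Genes of other cells were present unevenly over the members. A list of 14 monocyte and monocyte-derived macrophage genes, with Cd209a of the dendritic list left out, reached 1000 CPM in 39.0% of Tumor-AM members against 18.7% of other cells, with a summed level of 1096 against 689 CPM. Of its genes 12 were kept, 11 of them also without the members' UMIs, and 6 were at least 2-fold higher in Tumor-AM members, beside 1.96% of all kept genes, with a median log2 ratio of 0.90. Itgam (1.47) and Ms4a7 (1.08) were seen in 91 and 93 members, and C1qb (1.99) had a ratio of 1.43 without its highest cell. In Control-AM the list of 14 reached 1000 CPM in 6.06% of members against 5.85%. Within it, Plac8 was at 21.6 against 2.37 CPM in Tumor-AM, but 38.2% of its member UMIs came from 1 of 12 cells. C1qa, a complement chain, was at 29.7 against 7.92 CPM with 62.9% of the UMIs from 1 cell, and at 11.1 CPM without that cell. In Tumor-AM members the dendritic list of 10 genes was summed at 698 CPM, against 189 CPM in other cells, with Bst2, also a gene of the type I list, at 690 against 184 CPM. Without Bst2 and Cd209a, which other lists hold too, it was summed at 7.87 against 5.05 CPM, with 3 of 8 genes at 0 UMIs, Flt3 and Xcr1 among them. The T and NK list of 16 genes was summed at 80.3 against 17.6 CPM, and without Ccl5, which the chemokine list also holds, at 42.7 against 16.6 CPM with 7 of 15 genes at 0. Il7r of that list was at 32.5 against 14.2 CPM. The neutrophil list was at 172 against 119 CPM with 6 of 9 at 0, S100a9 and Ly6g among them. The highest log2 ratio among its 3 kept genes was 0.69, and 1.18 in Cxcl9-only members (a class described below). S100a8 of that list was seen in 26 Cxcl9-only members, with a ratio of 0.96 without its highest cell. In Control-AM members the neutrophil list was summed at 1724 CPM against 60.1 CPM in other cells, and 1 member held it at 258449 CPM. The endothelial list was at 107 against 6.73 CPM in Control-AM, where 2 of 33 members reached 1000 CPM, the highest at 6573. In Tumor-AM it was at 17.3 against 5.40 CPM, with 3 of 420 members past 1000 CPM, the highest at 6486. The B and plasma cell list was at 54.9 against 3.15 CPM in Control-AM, with 1 member at 8783 CPM, and at 0.197 against 1.48 CPM in Tumor-AM. Leaving out every cell with at least 1000 CPM of a lymphoid, neutrophil, dendritic, endothelial or fibroblast list, each without the genes left out above, removed 4 Control-AM and 12 Tumor-AM members. The shares then were 0.471% and 5.36%, and the median log2 ratio of the gamma list described below was 2.89 in Control-AM, in place of 2.84, and 2.13 in Tumor-AM, as before. Siglecf, which encodes the Siglec-F of the study's AM definition, was at 69.3 CPM in Tumor-AM members and 104 CPM in other cells. The part of monocyte genes in the results was not tested.

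The interferons themselves were not detected in members. All 21 interferon genes listed had 0 UMIs in members of both libraries, and 0 UMIs in Tumor-AM members allow a level of up to 0.590 CPM per gene, against 7.48 CPM in the fewer Control-AM members. Among the other Tumor-AM cells, Ifng and Ifnab had 2 UMIs each and Ifna2 had 1. The summed level of the 21 genes in other cells was 0.0785 CPM in Tumor-AM and 0.357 CPM in Control-AM.

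The receptor chains showed no 2-fold difference. In Tumor-AM members, Ifnar1 was at 26.6 against 23.9 CPM, Ifnar2 at 117 against 100.3 CPM, Ifngr1 at 136 against 162 CPM and Ifngr2 at 88.2 against 82.4 CPM. Their log2 ratios lay between −0.26 for Ifngr1 and 0.22 for Ifnar2, around a median of all kept genes of −0.15. In Control-AM, Ifngr2 was at 89.8 against 51.7 CPM, a log2 ratio of 0.80 (0.28 to 1.27).

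Among the signal transducers, Stat2, used by type I signalling and itself a known interferon target, was at least 2-fold higher in Tumor-AM members, at 93.1 against 33.1 CPM (log2 ratio 1.49), as were 1.96% of all kept genes. The kinases Jak1 and Tyk2 stood at log2 ratios of 0.02 and 0.09, and Jak2 at 0.41. Irf9, a partner of STAT2, was at 49.2 against 28.1 CPM (0.81), and Irf1, an early gamma target, at 74.8 against 50.4 CPM (0.57). In Control-AM, Stat2 (2.43) and Irf9 (2.26) were past 2-fold, and Irf3, a factor of interferon transcription, was past it downward at 9.98 against 30.8 CPM on 4 UMIs (−1.63), where 4.29% of 9610 kept genes were higher and 7.57% lower.

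Among 9 inhibitors of interferon signalling, Usp18 and Socs1 were past 2-fold upward in Tumor-AM and none downward, beside 1.96% and 1.84% of all kept genes. Usp18, which blocks the type I receptor, was at 46.6 against 4.39 CPM in Tumor-AM, a log2 ratio of 3.41 (3.15 to 3.66), and at 17.5 against 0.124 CPM in Control-AM. With members chosen by Cxcl9 alone, the Tumor-AM ratio of Usp18 turned to −0.20. Socs1, which inhibits JAK kinases, was at 7.87 against 3.72 CPM, with 40 member UMIs. Socs3 stood at a log2 ratio of 0.81, and the phosphatases Ptpn1, Ptpn2 and Ptpn6 between −0.39 and 0.34.

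Of 16 kept nucleic acid sensors and adaptors, 6 were at least 2-fold higher in Tumor-AM members and none lower, beside 1.96% and 1.84% of all kept genes. Zbp1, a sensor of Z-form nucleic acids, was at 161 against 34.3 CPM. The RNA helicases Ddx58 (RIG-I), Ifih1 (MDA5) and Dhx58 (LGP2) had log2 ratios of 1.51, 1.49 and 1.65, Ikbke, a kinase upstream of interferon transcription, 1.27, and Tlr3, a receptor for double-stranded RNA, 1.10. The adaptors Mavs (−0.56), Myd88 (0.19) and Ticam1 (−0.27) and the kinase Tbk1 (−0.08) did not reach 2-fold.

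The type I list gathers antiviral genes mainly known from the ISRE response. In Tumor-AM, 37 of its 42 genes were kept by a filter of at least 200 UMIs over all filtered cells, and 36 of the 37 were at least 2-fold higher in members, with a median log2 ratio of 2.12, beside 1.96% of all kept genes. Of the 37, 34 would have been kept without the members' own UMIs, and the other 3 were kept only through them. Irf9 was the 1 gene below 2-fold. Ifit1bl1, a relative of the Ifit genes, was at 46.6 against 0.267 CPM, Cmpk2, a mitochondrial nucleotide kinase, at 74.4 against 4.33 CPM, and Oasl1, which restrains Irf7 translation, at 35.8 against 2.40 CPM. Slfn5 was at 379 against 44.0 CPM, and Ifitm3, a membrane protein that limits virus entry, at 298 against 34.1 CPM. Ifi27l2a, at 1764 against 511 CPM (1.79), and Bst2, the tether of budding viruses, at 690 against 184 CPM (1.90), had ratios below the list median of 2.12. In Control-AM, 22 of the 42 genes were kept and all 22 were past 2-fold, with a median of 2.55, beside 4.29% of all kept genes, of which 20 would have been kept without the members.

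The gamma list gathers genes mainly known from the GAS response, with Cxcl9 and MHC class II left out. In Tumor-AM, 19 of its 38 genes were kept, all of them also without the members' UMIs, and 17 were at least 2-fold higher, beside 1.96% of all kept genes, with a median of 2.13. Gbp2 was at 143 against 25.0 CPM (2.51), Gbp5 at 33.5 against 3.42 CPM (3.29), and the immunity-related GTPases Igtp and Irgm1 at 46.8 against 7.80 CPM and 64.3 against 14.1 CPM. Fcgr1, the high-affinity IgG receptor, was at 105 against 37.8 CPM. The 2 genes below 2-fold were Irf1 and Cd274, which encodes PD-L1 and was at 161 against 148 CPM, a log2 ratio of 0.12. Genes under the filter included Serpina3g at 27.9 against 0.691 CPM and Iigp1 at 23.02 against 0.753 CPM, seen in 32 and 36 members. Nos2 had 4 member UMIs and Ido1 none. In Control-AM, 8 of 11 kept genes were past 2-fold, beside 4.29% of all kept genes, with a median of 2.84, led by Gbp2 at 277 against 13.0 CPM. Of the 11, 10 would have been kept without the members' own UMIs.

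The medians of the 2 lists were thus almost equal in Tumor-AM, 2.12 and 2.13, against a median of −0.15 over all kept genes. This held for members by the full score. With members chosen by Cxcl9 alone the type I median was 1.07, and the gamma median lay between 1.78 and 2.44 over 10 settings. Of the 26 genes that both interferons induce, 15 were at least 2-fold higher in Tumor-AM members and none lower, beside 1.96% and 1.84% of all kept genes, with a median of 1.11. Cxcl10, another CXCR3 ligand, was the highest of them at 112 against 8.62 CPM (3.69), but it was seen in 51 of the 420 members, and 15.9% of its UMIs came from 1 cell.

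MHC class I genes were higher by a moderate amount, with 10 of 20 past 2-fold in Tumor-AM, beside 1.96% of all kept genes, and a median of 1.05. H2-M2, the highest ratio among the 10, was kept only through the members' UMIs, and the other 19 of the 20 also without them. The peptide transporter Tap1 was at 122 against 41.8 CPM, the immunoproteasome subunit Psmb8 at 408 against 184 CPM, and Nlrc5, the transactivator of class I genes, at 27.6 against 8.27 CPM. The classical genes H2-K1 and H2-D1 were each at a log2 ratio of 0.75. The MHC class II genes differed in the size of their ratios. H2-Eb1 was at 150 against 34.7 CPM (2.11), H2-Ab1 at 291 against 81.5 CPM (1.83), H2-Aa at 237 against 74.9 CPM (1.66) and the invariant chain Cd74 at 985 against 302 CPM (1.70), which made 4 of 8 past 2-fold in Tumor-AM, beside the same 1.96%. The peptide-loading genes H2-DMa and H2-DMb1 and the protease Ctss were under 2-fold, with intervals above 0, at 0.27 (0.18 to 0.36), 0.60 (0.46 to 0.73) and 0.57 (0.55 to 0.58). H2-DMb2 was at −0.66 (−1.52 to 0.08) on 15 member UMIs. In Control-AM members Cd74 was at 1881 CPM and H2-Ab1 at 798 CPM, but 1 cell held 49.1% and 62.2% of these UMIs, and the levels without the highest cell were 989 and 312 CPM. H2-Aa and H2-Eb1 had 70.1% and 74.8% of their Control-AM member UMIs in 1 cell. Without its highest cell, Cd74 was at 947 CPM and H2-Ab1 at 272 CPM in Tumor-AM members.

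Of 14 kept chemokines other than Cxcl9, 5 were at least 2-fold higher in Tumor-AM members, beside 1.96% of all kept genes, and 2 of the 14, Ccl5 among them, were kept only through the members' UMIs. Cxcl16, the ligand of CXCR6, was at 120 against 44.1 CPM and was seen in 223 members, and Ccl2, which draws monocytes, was at 67.7 against 22.6 CPM. Ccl5, a T cell attractant, had the second highest log2 ratio among all genes named by size, 5.12, but 73.3% of its 191 member UMIs came from 1 of 13 cells, and without that cell the ratio was 3.22 (2.66 to 3.76). With members chosen by the 6 score genes other than Cxcl9 the ratio was 0.49, under 2-fold, and by Cxcl9 alone 7.47. The log2 ratio of Ccl17 was 1.28, and 0.39 without its highest cell. Among 10 kept checkpoint and costimulatory genes, beside the same 1.96% higher and 1.84% lower over all kept genes, Lgals9 (1.12) was past 2-fold upward and Pdcd1lg2, which encodes PD-L2, past 2-fold downward at 3.35 against 8.33 CPM.

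Of the 12 genes with the largest ratios in Tumor-AM, 7 passed the filter of 200 UMIs only through the members' own UMIs and so had to be higher in members. Ifit1bl1, Ms4a4c, Cmpk2, Oasl1, Phf11b and Usp18 belong to the type I list, and Ccl5, Cxcl10 and H2-M2 are given above. The remaining 3 were Tm4sf1 at 39.7 against 3.31 CPM, Ctla2a at 29.3 against 2.53 CPM, and the adhesion molecule Vcam1 at 19.9 against 1.91 CPM. The endothelial list, at 17.3 against 5.40 CPM in Tumor-AM, reached 1000 CPM in 3 members, all of them ISG-only (a class described below). The part of such cells in these 3 ratios was not tested. Of the Ctla2a member UMIs 83.2% lay in 1 of 5 cells, and without it the level was 4.94 CPM and the log2 ratio 0.97, under 2-fold. Of the Vcam1 member UMIs 64.4% lay in 1 of 14 cells, and the level without it was 7.12 CPM. The 12 genes with the largest ratios in the other direction rested on few UMIs. Nppc, a natriuretic peptide, had 0 UMIs in members against 7.34 CPM in other cells, a log2 ratio of at most −3.64 with 3 counts taken as the floor over all members. The mitotic genes Nusap1 and Ect2 had 7 and 4 member UMIs, and Cpne5, the best covered of the 12, was at 9.25 against 35.2 CPM. Of 15 kept cell cycle genes, 4 were at least 2-fold lower in Tumor-AM members, beside 1.84% of all kept genes, Mki67 at 12.2 against 31.1 CPM among them. The heat shock genes Hspa1a and Hspa1b of the dissociation list were lower as well, at 105 against 273 CPM and 93.3 against 328 CPM, and no gene of that list was 2-fold higher. Actb, Gapdh and Ptprc stood at log2 ratios of 0.27, 0.18 and −0.04.

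The lists also moved along the score, below the threshold as well as above it. In Tumor-AM, the summed type I list was at 982 CPM in the 5411 cells without a score UMI, 2611 CPM in the 932 cells from 100 to 250 CPM, 5152 CPM in the 233 cells from 500 to 1000, and 8898 CPM in the 72 cells at 2000 or more. The gamma list was at 508, 659, 1254 and 4013 CPM in the same ranges, so most of its increase lay at the upper end. AW112010, a gene of that list, went from 140 to 1728 CPM between the first and last of these ranges. The score holds Cxcl9 itself, so Cxcl9-rich cells gather in the upper ranges. The AM identity list went from 25882 to 21401 CPM. In Control-AM, the type I list was at 467 CPM in the 5654 cells without a score UMI and 722 CPM from 100 to 250, and reached 5766 CPM in 9 cells at 2000 or more. Between the libraries, the other cells of Tumor-AM had 3.21 times the type I level of those of Control-AM (1546 against 482 CPM) and 1.67 times the gamma level (569 against 342 CPM). The members of Tumor-AM had 1.60 times the type I level of the Control-AM members and 0.902 times their gamma level, with only 33 cells on the control side. The type I sum was led by Ifi27l2a in Tumor-AM, at 32.0% of it, and by Bst2 in Control-AM, at 17.7%. In cells from 500 to 1000, Ifi27l2a was at 1740 CPM in Tumor-AM and 263 CPM in Control-AM. At 2000 or more it was at 2224 and 94.4 CPM. The part of this gene in the ratio of 1.60 was not tested. Over all filtered cells the gamma sum was led by AW112010, at 29.8% in Tumor-AM and 37.0% in Control-AM.

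**Figure D3:**
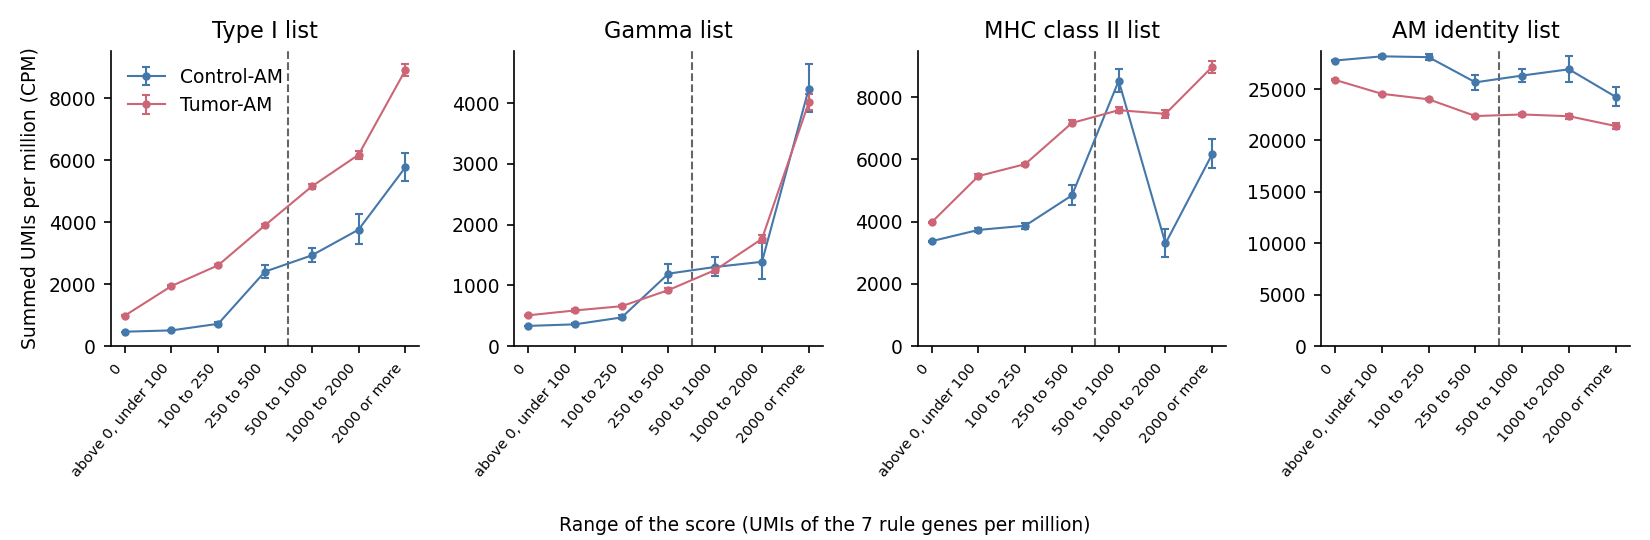
Summed level (CPM) of 4 gene lists in cells grouped by score range, for Control-AM and Tumor-AM, with exact 95% Poisson intervals and a dashed line at the threshold of 500 CPM. The type I list of Tumor-AM climbs from 982 to 8898 CPM over all ranges, the gamma list climbs mainly at the upper end to 4013 CPM, and the AM identity list ends at 21401 CPM. The MHC class II sum is mostly the protease Ctss, at 82.9% of it in Tumor-AM and 69.6% in Control-AM, with Cd74 next at 7.22% and 12.9%.

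Cut at the same threshold, the members gave an ISG part and a much smaller Cxcl9 part. The sum of 6 genes and Cxcl9 alone were held to the same 500 CPM, so the class sizes depend on this rule. In Tumor-AM, 356 members (84.8%, 81.0% to 88.1%) passed the threshold on the 6 ISGs of the score but not on Cxcl9 alone, 39 (9.29%, 6.69% to 12.5%) passed it on Cxcl9 alone but not on the 6 ISGs, 18 (4.29%) passed both and 7 passed only by the sum. In Control-AM the counts were 28, 4, 1 and 0. Cells past both made up 31.6% of the 57 Tumor-AM cells past the threshold on Cxcl9 and 4.81% of the 374 cells past it on the ISGs. The median depth was similar, 11614.5 UMIs in ISG-only and 12738 in Cxcl9-only members. As the classes were cut on the same 7 genes, the following differences between them are descriptions as well.

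ISG-only members carried the type I list and Cxcl9-only members the MHC class II list. Against the other Tumor-AM cells, 36 of 37 type I genes were at least 2-fold higher in ISG-only members (median 2.25), where 1.91% of all kept genes were higher and 1.74% lower. In Cxcl9-only members 13 of the 37 were higher and 1 lower (median 0.85), where 3.37% of kept genes were higher and 10.2% lower, 269 of them at 0 UMIs. The gamma list was higher in both classes, with 16 of 19 genes and a median of 1.92 in ISG-only members and 12 of 19 and a median of 1.496 in Cxcl9-only members. For MHC class II the medians were 0.79 and 2.64, with 4 and 6 of 8 genes past 2-fold. Over 6 other settings, among them leaving out the cell with the most UMIs of each gene, the Cxcl9-only medians lay between 0.59 and 1.10 for the type I list, 1.02 and 1.69 for the gamma list and 2.54 and 2.75 for class II.

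Set directly against each other, 26 of the 37 type I genes were at least 2-fold higher in ISG-only than in Cxcl9-only members and none lower, with 7.47% of kept genes higher and 3.99% lower. Stat2 was at 106 against 21.3 CPM, Slfn5 at 425 against 83.3 CPM and Ifitm3 at 309 against 101 CPM. Usp18 was at 55.1 CPM in ISG-only members and had 1 UMI in Cxcl9-only members, a log2 ratio of 4.83 with an interval of 2.34 to 10.1. Of the 8 class II genes 5 were at least 2-fold lower in ISG-only members and none higher, with a median of −1.998. Cd74 was at 624 CPM in ISG-only and 3153 CPM in Cxcl9-only members, H2-Aa at 150 and 827 CPM, H2-Ab1 at 188 and 904 CPM, and H2-Eb1 at 99.0 and 482 CPM. Without the cell with the most UMIs of each gene, Cxcl9-only members were at 2909 CPM for Cd74, 776 CPM for H2-Aa, 835 CPM for H2-Ab1 and 453 CPM for H2-Eb1. Of 19 gamma genes, 6 were at least 2-fold higher and 3 lower in ISG-only members, with a median of 0.41 and 12 genes above 0. Gbp2 was among the lower ones at 95.9 against 331 CPM, as was AW112010 at 408 against 1958 CPM. The summed gamma list was at 1528 CPM in ISG-only and 3097 CPM in Cxcl9-only members.

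**Figure D4:**
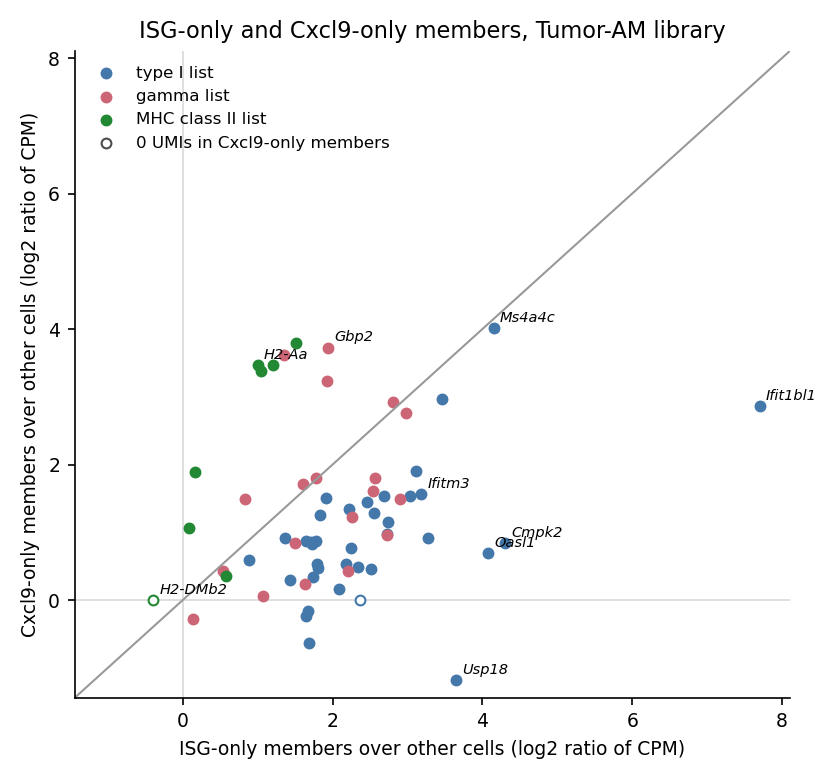
Log2 ratio of CPM over the other Tumor-AM cells for each kept gene of the type I, gamma and MHC class II lists in ISG-only members (horizontal) and Cxcl9-only members (vertical); the grey diagonal marks equal ratios and open points have 0 UMIs in Cxcl9-only members. Most type I genes lie under the diagonal (Usp18 at 3.65 and −1.18), while H2-Eb1 (1.51 and 3.80) and Gbp2 (1.94 and 3.73) lie above it.

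By the rule of the 12 largest ratios, the genes higher in ISG-only members were led by Ifit1bl1, Usp18 and Tm4sf1, and 11 of the 12 had at most 3 UMIs in Cxcl9-only members, so their ratios are poorly fixed. The 12 in the other direction were led by Ccl5, which was at 325 CPM in Cxcl9-only and 4.27 CPM in ISG-only members, with 83.3% of the Cxcl9-only UMIs in 1 cell and 55.5 CPM without it. H2-M2 was at 153 against 14.2 CPM, with 38.0% of its Cxcl9-only UMIs in 1 cell and 98.4 CPM without it. C3, the central complement component, was at 595 against 88.1 CPM, found in 36 of the 39 Cxcl9-only members. AW112010 was at 1958 against 408 CPM. Among 5259 genes with at least 100 UMIs over both classes, a limit chosen after the values were seen, Cfb, which encodes complement factor B, was also higher in Cxcl9-only members at 939 against 251 CPM. Of 14 kept chemokines, 3 were at least 2-fold higher and 5 lower in ISG-only than in Cxcl9-only members. Over all kept genes 7.47% were higher and 3.99% lower. Cxcl16 was at 231 CPM in Cxcl9-only and 96.2 CPM in ISG-only members. Cxcl10 was at 15.5 CPM in Cxcl9-only members, on 8 UMIs in 4 cells with 50% in 1 of them. It was at 83.4 CPM in ISG-only members and 809 CPM in the 18 members past both thresholds. In those 18, 44.8% of its UMIs lay in 1 of 7 cells and the level without that cell was 483 CPM.

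In the 18 members past both thresholds the median log2 ratio over other cells was 2.22 for the type I list, 2.90 for the gamma list and 2.42 for class II. Gbp2 was at 587 CPM and Serpina3g, a protease inhibitor, at 270 CPM, against 14.2 CPM in ISG-only and 29.1 CPM in Cxcl9-only members. Isg15 was at 720 CPM and Cxcl9 at 2160 CPM in these cells, which the class rule used. Of 12 kept monocyte and monocyte-derived macrophage genes, 8 were at least 2-fold higher in these 18 cells than in the other Tumor-AM cells and none lower (median 1.38), and of 19 AM identity genes 1 was higher and 8 lower (median −0.89), with 1 of the 18 cells under 1000 CPM of the identity list. Over all kept genes 5.98% were higher and 14.2% lower in these cells, and 956 were at 0 UMIs. Some of the monocyte genes rested on 1 of the 18 cells. All 6 UMIs of Plac8 lay in 1 cell. C1qa had 94.7% of its UMIs in 1 of 2 cells, with a log2 ratio of −0.81 (−6.12 to 1.67) without it. C1qb had 69.5% in 1 of 6 cells, with a ratio of 2.74 without it. Without their highest cells, Itgam and Ms4a7 were at 1.40 and 0.96, each seen in 6 cells. In Cxcl9-only members 5 of the 12 monocyte genes were higher and 6 of the 19 identity genes lower, beside 3.37% and 10.2% of all kept genes, and all 39 cells were above 1000 CPM of the identity list. The part of these genes in the class differences was not tested.

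Membership was set against Apoe, a gene high in the Tumor-AM library. The share of members was 4.54% among the 4823 Tumor-AM cells without an Apoe UMI and 14.7% (11.1% to 18.9%) among the 347 cells with at least 2000 CPM. The median depth of these groups was 7749 and 11943 UMIs, and the part of depth in this difference was not tested. Apoe itself was at 1058 CPM in Tumor-AM members against 566 CPM in the other cells, a log2 ratio of 0.90, with 17.2% of the member UMIs from 1 cell. That ratio was past 2-fold at a threshold of 250 CPM (1.4998), with members by Cxcl9 alone (1.40) and by the mean of each cell's CPM (1.06). The value by Cxcl9 alone rested on few cells. In Cxcl9-only members 39.8% of the Apoe UMIs lay in 1 of 13 cells, and the ratio without it was −0.19. In members past both thresholds 61.5% lay in 1 of 10 cells, and the ratio without it was 1.27. Inhba, which encodes the activin A subunit, was at 216 against 143 CPM (0.60, and 1.01 at a threshold of 1000 CPM). In Control-AM the direction of Inhba was the opposite, at 4.99 CPM on 2 UMIs in members against 45.9 CPM in other cells, and Apoe was at 22.5 CPM on 9 UMIs against 25.6 CPM. Whether the ratios differ between the libraries was not tested.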

How the data were processed

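Droplet 3′ libraries of sorted AMs were analysed from the deposited UMI counts per gene and cell barcode, which the authors had not normalized. The lowest barcodes held 500 and 501 UMIs, so barcodes under that depth are not in the tables. The submitters' processing notes name bcl2fastq 2.20 and Cell Ranger 4.0.0 with mm10, and the study's methods name a later Cell Ranger release. Control-AM held 8485 barcodes with 67847088 UMIs and Tumor-AM 9175 with 70738320. Of 32285 Ensembl identifiers, 32158 were matched to a symbol, and 0 columns belonged to other series.

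Counts were summed over the cells of a group and given as CPM of their summed UMIs. The 3′ tags give no level per length, so genes were not ranked by level. Shares carry Clopper-Pearson, CPM Poisson and ratios conditional binomial intervals at 95%, all for counting error only. A gene was called higher or lower past 2-fold in size among genes with at least 200 UMIs in the filtered cells of the library, and no p-value was computed. A group at 0 was set at 3 counts over the group. Cells are not replicates. The scripts were tested on simulated data.

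Genes named are the 7 score genes, the 5 markers Cxcl9, Isg15, Irf7, AW112010 and H2-M2, genes of the lists, the 12 largest ratios each way for members over other cells and for ISG-only over Cxcl9-only members in Tumor-AM (ribosomal and mitochondrial genes left out), and Actb, Gapdh and Ptprc. Cfb is named outside this rule, after its value was seen. The members and lists were chosen with earlier results of these data known. Automatic doublet calls marked 1 cell per library, so removal of the top 6% by Scrublet score was an alternative. Hashtag counts were not used here, and 1 signal transducer is not reported here. The work used Python 3.11.15, numpy 2.4.6, pandas 2.3.3, scipy 1.17.1, scanpy 1.11.5, anndata 0.12.19 and matplotlib 3.10.9.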

Additional observations from a re-analysis of the deposited data

Results flagged for a closer look

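The neutrophil list had a median log2 ratio of members over other cells of −0.37 in Tumor-AM and 2.22 in Control-AM, opposite directions in the 2 libraries. In Control-AM, 1 member held the list at 258449 CPM, and without the cells that held genes of another cell type the median was −0.57. The epithelial list had a median of −0.61 in Tumor-AM and 0.29 in Control-AM, and the cell cycle list −0.22 in Tumor-AM and 0.47 in Control-AM. Without the same cells these medians were −0.70 and 0.33 for the epithelial list and −0.65 and 0.51 for the cell cycle list. These differences between the libraries were not tested. Among the 1509 Tumor-AM barcodes outside the quality filter, which entered no comparison, 80 (5.30%, exact interval 4.23% to 6.56%) reached the threshold, with a median of 1 UMI of the 7 genes, against 14 of 2300 (0.609%) in Control-AM.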

How the results depend on the processing

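No paired analysis was possible because each condition had 1 library, and for the same reason no replicate could be left out. Among values that answer a comparison, 122 kept their direction and size under an alternative and 28 moved. The share of members moved with the score. At 250 CPM it was 0.954% in Control-AM and 10.6% in Tumor-AM (difference 9.68 percentage points), and at 1000 CPM 0.259% and 2.44% (2.18). With Cxcl9 alone it was 0.0808% and 0.744% (0.663), and with the 6 genes without Cxcl9 4.88% in Tumor-AM. Thinning to 4000 UMIs, which left out 634 and 816 cells, 5 and 33 of them members, gave 8.23% in Tumor-AM and a difference of 7.49, with 88.1% ISG-only and 6.38% Cxcl9-only members. With members by Cxcl9 alone, the type I median was 1.07 in Tumor-AM and 1.91 in Control-AM, the gamma median 2.16 in Control-AM, and in Tumor-AM the log2 ratio of Usp18 turned to −0.20 and that of Marco was −0.57, under 2-fold. With the 6 genes without Cxcl9 that of Ccl5 was 0.49. The counts of genes past the limit moved with the filter. Tumor-AM had 374 higher and 428 lower with at least 50 UMIs, 1828 and 556 with at least 1 UMI, and 386 and 888 at 1.5-fold, against 188 and 177. Control-AM had 808 higher with at least 50 UMIs, 1455 with at least 1 UMI, 967 higher and 1748 lower at 1.5-fold, and 1192 lower by the mean of each cell's CPM, against 412 and 727. Removing the highest doublet scores took 0 Control-AM and 10 Tumor-AM members. Among single genes, 135 values kept their size and 64 moved without a change of direction, and those of Apoe and Inhba passed 2-fold under some settings. Chosen after the data were seen were the removal of cells with genes of another cell type, with or without AM genes, the limit of 3 UMIs of the 7 genes for calls, medians and classes, and all settings of the class medians. The 33 Control-AM members limit every control-side value, with 319 kept genes at 0 UMIs in them.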
